A study of Mus musculus with 24 samples.

Results

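The hippocampus of 6 mouse pups labelled brain-injured and given no erythropoietin (EPO), here called injured none, was set against that of 6 pups labelled sham-injured and given none, here called sham none. The 12 arrays were taken by the titles that begin Epo_N and Sham_N and by the injury status and treatment listed for each sample, and they are 12 of the 24 arrays of the series. The other 12 arrays came from 6 pups labelled brain-injured with high-dose recombinant EPO (injured EPO) and 6 labelled sham-injured with it (sham EPO). All pups were of the BALB-c strain and aged 10 days, and total RNA of the right hippocampus, on the side of the carotid artery ligation, was hybridised to 1 Affymetrix Mouse Exon 1.0 ST array per sample. Not given in the sources used here were the age at injury, how much EPO was given and when, and the handling of the sham pups. Each group is a single strain at a single age. The titles can also be read with the first word as the treatment and the letter as the injury, which would exchange injured none and sham EPO, so every direction below is as labelled. Of 23238 rows on the array, 14939 carried 1 gene symbol and could be named.

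Interruption of the blood supply to the newborn hippocampus is known to kill neurons, to turn microglia and astrocytes to a reactive state and to bring in leukocytes. Microglia carry complement and chemokine genes, astrocytes raise Gfap and the secreted protein gene Lcn2, and pyramidal neurons carry genes such as Hpca and Neurod6. EPO, the hormone of red cell formation, signals through its receptor Epor, the kinase Jak2 and the factor Stat5, whose targets include Cish and Socs2.

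No row passed the test between the injured none and sham none arrays (0 of 23238 rows, 0%, limma with Benjamini-Hochberg adjustment over all rows, threshold 0.05, smallest adjusted p 0.234). At an unadjusted p under 0.05, 1548 rows were higher (6.66%) and 255 were lower (1.1%) in injured none arrays, and the same fit on the 12 arrays alone gave 0 rows past the adjusted threshold and 2774 rows at an unadjusted p under 0.05. Labels do not say that the samples came from separate litters, so the p-values measure the spread between these samples.

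The array values as a whole were slightly higher in the injured none arrays. The median over all rows was 5.26 ± 0.05 in injured none and 5.19 ± 0.05 in sham none arrays (log2, SD, n = 6 each), a difference of 0.0722 (exact permutation p = 0.0455, two-sided, 924 assignments, adjusted p = 0.0682 over 3 array measures). The upper quartile was 7.63 ± 0.07 in injured none and 7.48 ± 0.14 in sham none arrays (exact permutation p = 0.039, adjusted p = 0.0682). The lower quartile was 3.22 ± 0.02 in injured none and 3.21 ± 0.02 in sham none arrays (exact permutation p = 0.476). The difference between groups therefore varied with the level of a row: its median was 0.00 for rows at a mean level of 3 to 4, 0.16 for rows at 6 to 8 and 0.11 for rows above 9. Over all rows the median difference was 0.08 as deposited, 0.01 after each array was centred on its median and 0.00 after quantile normalization. The share of higher rows among those at an unadjusted p under 0.05 was 85.9% as deposited, 55.7% centred and 53.4% after quantile normalization. Each list and gene below is read against these shifts.

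**Figure D1:**
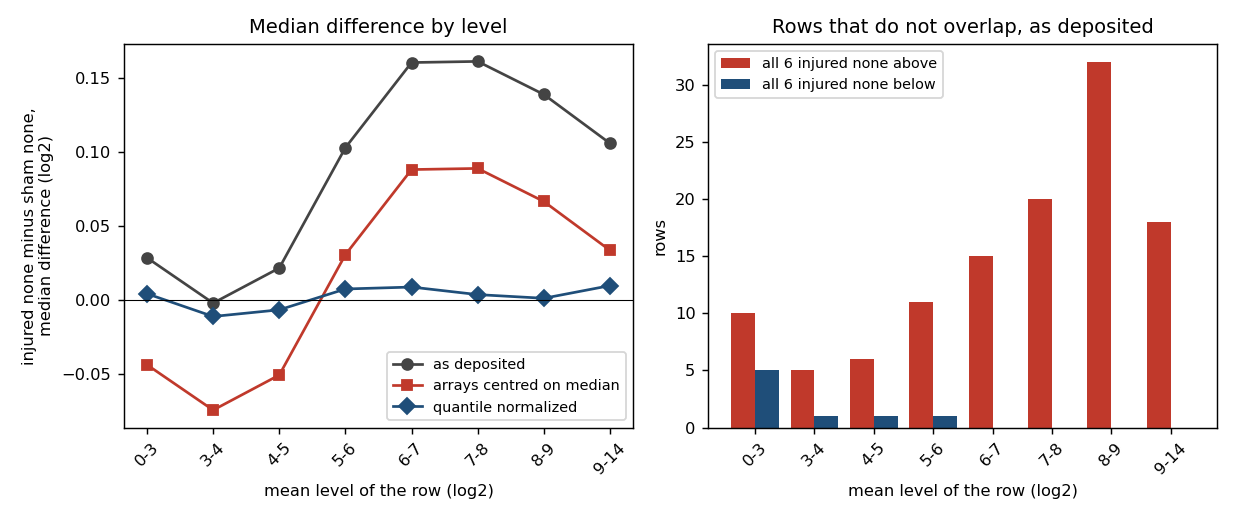
Left, the median difference (log2) between injured none and sham none arrays in rows grouped by mean log2 level, for the values as deposited, after each array was centred on its median and after quantile normalization. Right, the number of rows in each level class with all 6 injured none arrays above, or all 6 below, every sham none array, as deposited. The deposited differences were largest, at 0.16, for rows at 6 to 8, and the rows with no overlap lay mostly on the higher side.

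Markers of hippocampal neurons were well expressed in both groups. The 20 measured neuronal and synaptic genes summed to 15.17 to 15.28 in injured none and 15.08 to 15.32 in sham none arrays (log2 of the summed linear values). Hpca, which encodes the calcium sensor hippocalcin of pyramidal cells, ranged from 10.08 to 10.55 in injured none arrays (median 10.40), against 9.78 to 10.49 in sham none arrays (median 10.26). Fibcd1, a marker of CA1 pyramidal cells in mouse, ranged from 7.74 to 8.49 in injured none arrays (median 8.25), against 7.60 to 8.38 in sham none arrays (median 8.14). Both genes overlapped widely between the groups, with differences of 0.18 ± 0.17 (SE, adjusted p = 0.756, limma) and 0.10 ± 0.20 (adjusted p = 0.883). The Y-linked gene Eif2s3y was above 5 in 3 of 6 injured none and 3 of 6 sham none arrays. The correlation between any 2 of the 12 arrays lay between 0.978 and 0.993. Since RNA was taken from whole tissue, fewer cells of a type and less RNA per cell cannot be told apart in anything that follows.

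The genes by which brain injury is usually followed were near their sham none levels. Ccl3, a chemokine gene of activated microglia, measured 3.99, 3.86, 3.75, 3.82, 5.29 and 3.55 in the 6 injured none arrays, against 3.58, 3.73, 3.80, 3.57, 3.42 and 3.81 in the 6 sham none arrays. A single injured none array, at 5.29, stood above the rest, and the other 5 lay between 3.55 and 3.99. Lcn2, the lipocalin gene of reactive astrocytes, measured 4.22, 3.77, 3.97, 4.24, 3.79 and 4.06 in the 6 injured none arrays, against 3.54, 3.78, 3.42, 3.90, 3.71 and 3.34 in the 6 sham none arrays. Its arrays overlapped, and the difference was 0.40 ± 0.42 (adjusted p = 0.772), or 0.13 with the letter code in the sample titles as a block. Gfap, the astrocyte filament gene, ranged from 8.92 to 9.45 in injured none arrays (median 9.18), against 8.58 to 9.30 in sham none arrays (median 8.93). Hmox1, the heme oxygenase induced by oxidative stress, ranged from 5.30 to 5.91 in injured none arrays (median 5.62), against 4.90 to 5.60 in sham none arrays (median 5.38). Timp1, an inhibitor of matrix proteases made by reactive astrocytes, ranged from 3.09 to 3.93 in injured none arrays (median 3.66), against 3.30 to 3.90 in sham none arrays (median 3.56). All 3 overlapped between groups, with differences of 0.24 ± 0.33, 0.27 ± 0.42 and 0.04 ± 0.42 and adjusted p of 0.824, 0.842 and 0.98.

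Ccl2, the monocyte chemokine, ranged from 4.05 to 4.42 in injured none arrays (median 4.12), against 3.95 to 4.42 in sham none arrays (median 4.17). Socs3, the feedback inhibitor of cytokine signalling through Stat3, ranged from 4.80 to 5.62 in injured none arrays (median 5.48), against 5.24 to 5.70 in sham none arrays (median 5.58). Both had slightly lower means in injured none arrays, by differences of -0.03 ± 0.14 and -0.16 ± 0.18 (adjusted p = 0.953 and 0.785). Aif1, which encodes the microglial protein Iba1, ranged from 5.21 to 5.65 in injured none arrays (median 5.49), against 4.97 to 5.59 in sham none arrays (median 5.29), a difference of 0.18 ± 0.17 (adjusted p = 0.74). H19, an imprinted noncoding RNA gene, varied widely within groups, from 4.53 to 6.59 in injured none arrays (median 6.08), against 4.01 to 6.19 in sham none arrays (median 4.70), and its difference of 0.89 ± 0.50 had an adjusted p of 0.647.

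Bounds were set by the 95% intervals of the differences, which are not adjusted for the number of rows. With the spread taken from all 24 arrays, the interval lay within 2-fold in either direction for 22447 rows (96.6%) and within 1.5-fold for 17455 rows (75.1%). With the spread from the 12 arrays alone, the shares were 97.0% and 79.0%. The intervals differed between the fits for genes that varied widely inside the EPO groups. For Ccl3 the interval ran from -1.42 to 2.19 with 24 arrays and from -0.12 to 0.90 with 12. For Lcn2 it ran from -0.46 to 1.25 with 24 arrays and from 0.14 to 0.65 with 12. The upper ends with 24 arrays were 0.93 for Gfap, 1.14 for Hmox1, which is past 2-fold, 0.90 for Timp1, 0.53 for Aif1 and 0.26 for Ccl2. With 12 arrays they were 0.50, 0.56, 0.34, 0.41 and 0.17 in the same order. Ccl3, Lcn2, Timp1 and Ccl2 were read at a low signal, below the array medians in both groups. How far above the floor they lay was not tested, so their intervals bound the array signal only. The H19 interval ran from -0.14 to 1.91 with 24 arrays and from -0.03 to 1.81 with 12.

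**Figure D2:**
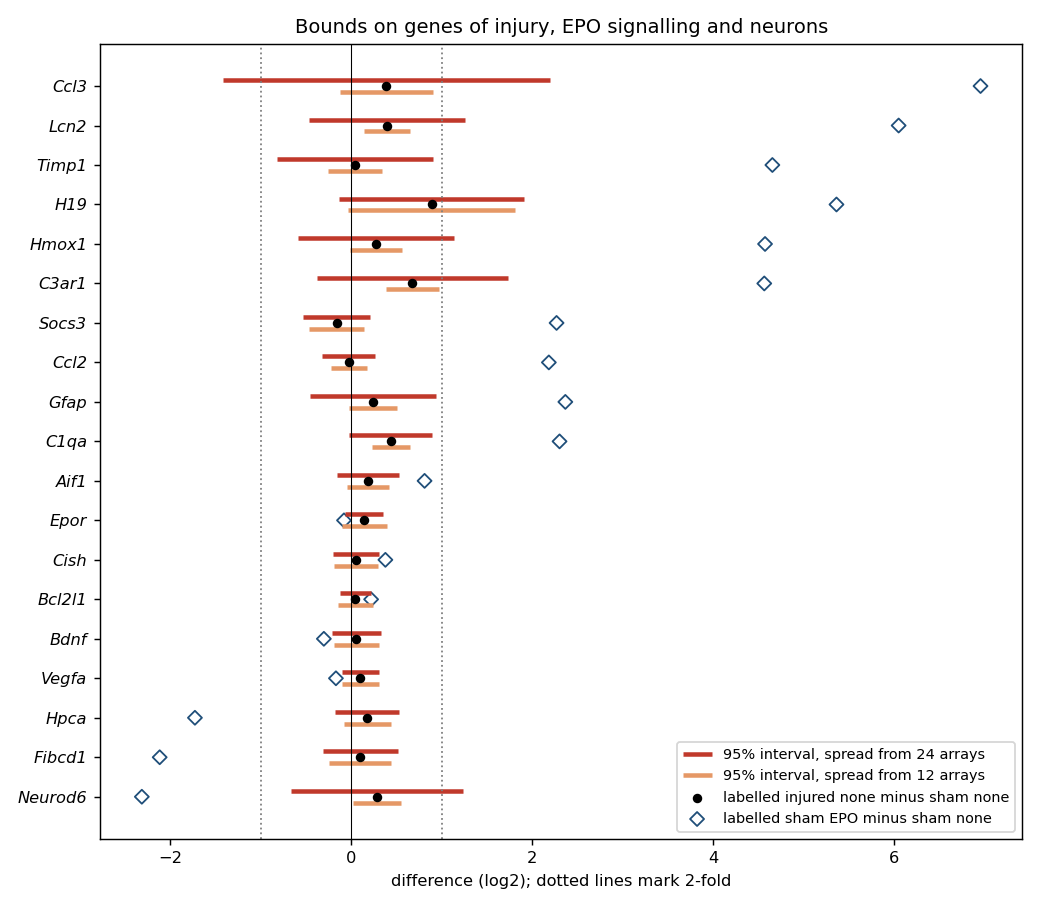
Differences (log2) of injured none minus sham none arrays for 19 genes of injury, EPO signalling and neurons (black points), with 95% intervals from the spread of 24 arrays (dark bars) and of 12 arrays (light bars), and sham EPO minus sham none (open diamonds, which share the sham none arrays). For Gfap the 24-array interval ended at 0.93 and the 12-array interval at 0.50, and the sham EPO difference was 2.37.

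The injured none arrays differed widely from the labelled sham EPO arrays, in which the same genes were far from the sham none level. In the direct contrast 2746 rows were higher (11.8%) and 1925 were lower (8.28%) in injured none than in sham EPO arrays (limma, adjusted p under 0.05). Of 25 genes chosen with earlier results of these data known, 11 were lower and 5 were higher in injured none arrays and passed. Ccl3 was 4.04 ± 0.63 in injured none and 3.65 ± 0.15 in sham none arrays, beside 10.61 ± 0.28 in sham EPO arrays (SD, n = 6 each). Its injured none minus sham EPO difference was -6.56 ± 0.87 (adjusted p = 6.15e-06). Lcn2 was 9.66 ± 0.78 in sham EPO arrays, and its injured none minus sham EPO difference was -5.65 ± 0.42 (adjusted p = 4.15e-09). For Hmox1 the same difference was -4.30 ± 0.42 (adjusted p = 9.93e-08) and for Gfap -2.13 ± 0.33 (adjusted p = 4.73e-05). Neuronal genes stood the other way. Neurod6, a transcription factor gene of pyramidal neurons, was 10.39 ± 0.16 in injured none and 10.10 ± 0.26 in sham none arrays and 7.79 ± 1.56 in sham EPO arrays, a difference of 2.60 ± 0.46 (adjusted p = 0.00017) between injured none and sham EPO. Of the 20 neuronal and synaptic genes, 19 passed as higher in injured none than in sham EPO arrays, and of 14 Fc and innate receptor genes 12 passed as lower.

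Small shifts that held in every array were counted next. In 117 rows (0.503% of all rows) the lowest injured none array was above the highest sham none array, and in 8 rows (0.0344%) the highest injured none array was below the lowest sham none array. Among rows with 1 symbol there were 99 above (0.663%) and 2 below (0.0134%). The differences of the 99 rows ran from 0.11 to 0.77 with a median of 0.29, and 3 of them, Bmp4, C3ar1 and Gem, reached 1.5-fold. The gap between the lowest injured none and the highest sham none array was between 0.000129 and 0.191, so some groups were parted by almost nothing. Just outside, 5 of the 6 injured none arrays exceeded all sham none arrays in 540 rows, and 5 were under all of them in 26 rows. The counts changed with the scaling: among rows with 1 symbol, 46 lay above and 12 below after centring, and 28 above and 11 below after quantile normalization. Under all 3 scalings 13 named rows stayed above and 1 stayed below. None of these 14 passed the adjusted threshold, with adjusted p from 0.234 to 0.693 (limma).

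Bmp4, a secreted growth factor that steers neural precursors towards astrocytes and away from oligodendrocytes, had the largest difference of the 13. It measured 6.48, 6.53, 6.25, 6.55, 6.67 and 6.61 in the 6 injured none arrays, against 5.32, 6.01, 5.53, 6.08, 5.44 and 6.12 in the 6 sham none arrays. The sham none arrays fell into a low and a high set of 3, and the lowest injured none array, at 6.25, was above the highest of them, at 6.12. The difference was 0.77 ± 0.18 (adjusted p = 0.541, 95% interval 0.40 to 1.13). Centring left 0.69 and quantile normalization 0.63. Bmp4 was 6.14 ± 0.50 in injured EPO and 6.69 ± 0.09 in sham EPO arrays.

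C3ar1, the microglial receptor for the complement fragment C3a, measured 4.997, 4.77, 5.35, 4.84, 5.06 and 4.87 in the 6 injured none arrays, against 4.23, 4.29, 4.65, 4.21, 3.88 and 4.57 in the 6 sham none arrays. Injured none arrays were all above sham none arrays and all far below the sham EPO arrays, which averaged 8.87 ± 0.36. The injured none minus sham none difference was 0.68 ± 0.51 with the spread of 24 arrays (adjusted p = 0.693), and its 12-array interval was 0.38 to 0.97. Against sham EPO arrays the difference was -3.89 ± 0.51. C1qa, a chain of the first complement component and made by microglia, measured 7.92, 7.93, 8.04, 8.12, 8.25 and 7.94 in the 6 injured none arrays, against 7.37, 7.71, 7.46, 7.71, 7.49 and 7.85 in the 6 sham none arrays. Its groups did not overlap as deposited or centred but overlapped after quantile normalization, where the difference was 0.28 in place of 0.44. Gem, a small GTP-binding protein gene induced by stimulation of many cells, measured 4.74, 5.05, 4.66, 4.70, 5.37 and 4.49 in the 6 injured none arrays, against 4.40, 4.36, 4.36, 3.997, 4.26 and 4.03 in the 6 sham none arrays. Its difference was 0.60 ± 0.21 (adjusted p = 0.637), and the sham EPO arrays were higher again, at 6.40 ± 0.28.

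Agmo and Olfr1413 also had means away from that of the sham EPO arrays. The contrast with sham EPO reuses the injured none arrays by which both genes were chosen, which favours a difference, so it is given as a description. Agmo, also read at a low signal, encodes an enzyme that cleaves ether lipids with tetrahydrobiopterin as cofactor. It measured 4.60, 4.55, 4.48, 4.38, 4.69 and 4.57 in the 6 injured none arrays, against 3.87, 4.05, 4.01, 4.03, 3.76 and 4.32 in the 6 sham none arrays. The difference was 0.54 ± 0.12 (adjusted p = 0.423), while injured EPO arrays averaged 4.06 ± 0.32 and sham EPO arrays 4.13 ± 0.09. The injured none minus sham EPO difference was 0.41 ± 0.12. Olfr1413, an olfactory receptor gene read here at a low signal, measured 3.96, 3.18, 3.94, 4.21, 4.21 and 4.06 in the 6 injured none arrays, against 4.94, 4.26, 4.75, 5.06, 5.09 and 5.29 in the 6 sham none arrays. Injured none replicate 2, at 3.18, was the lowest of all. The difference was -0.97 ± 0.19 (adjusted p = 0.234), and injured EPO arrays were at 4.88 ± 0.28 and sham EPO arrays at 4.81 ± 0.36. Against sham EPO arrays it was -0.88 ± 0.19. The RIKEN gene 2810032G03Rik, whose injured none and sham none arrays overlapped slightly, ranged from 3.96 to 4.55 in injured none arrays (median 4.40), against 3.79 to 3.99 in sham none arrays (median 3.93). Its injured none minus sham EPO difference was 0.76 ± 0.11. This gene was named for its small p with the same injured none arrays, so that contrast is likewise a description.

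**Figure D3:**
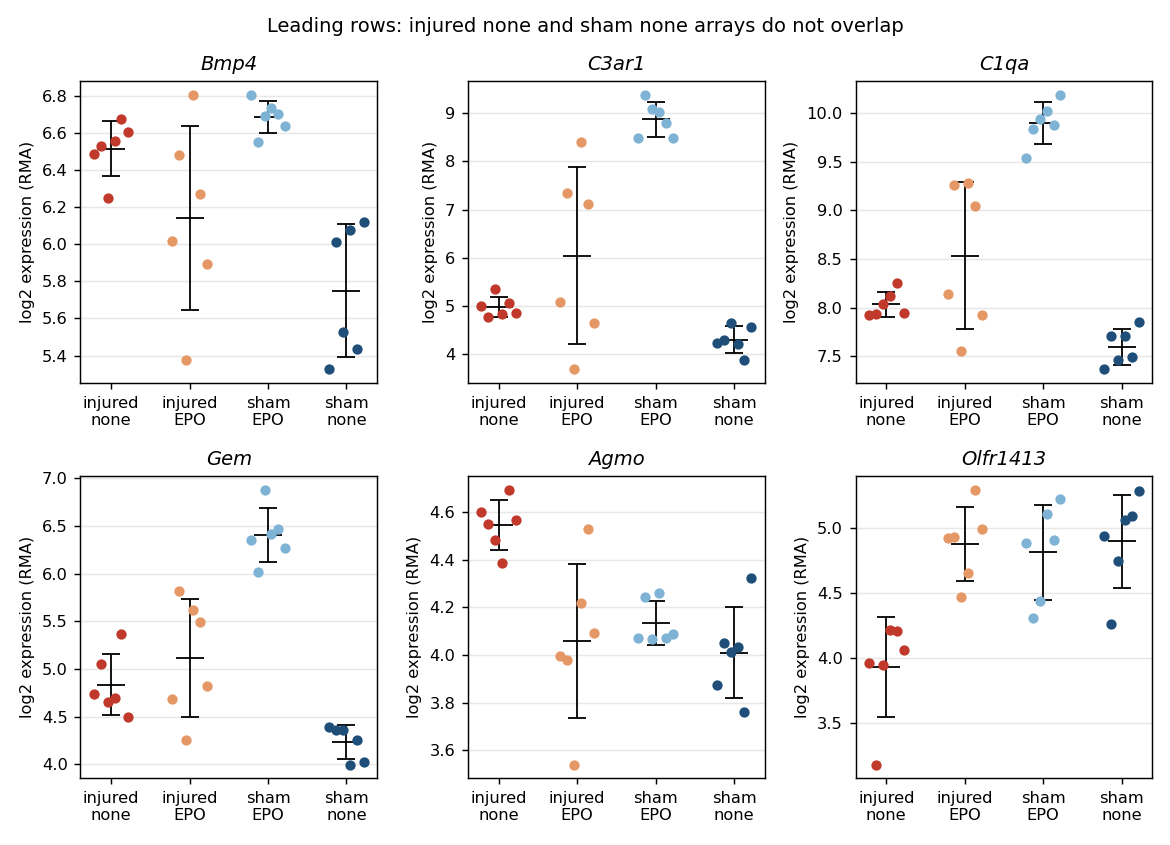
Log2 expression of 6 genes in every array, with bars at the mean and SD of each group of 6, for injured none, injured EPO, sham EPO and sham none arrays as labelled. All 6 injured none arrays lie above every sham none array for Bmp4, C3ar1, C1qa, Gem and Agmo and below for Olfr1413. C3ar1, C1qa and Gem are highest in the sham EPO arrays, at means of 8.87, 9.90 and 6.40.

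The other 9 genes above under all 3 scalings had differences from 0.31 to 0.49. Parl, a protease of the inner mitochondrial membrane, ranged from 9.23 to 9.45 in injured none arrays (median 9.37), against 8.62 to 9.17 in sham none arrays (median 8.87). Fuca1, the lysosomal enzyme that removes fucose, ranged from 7.18 to 7.61 in injured none arrays (median 7.37), against 6.78 to 7.14 in sham none arrays (median 6.92). Urod, the decarboxylase of heme synthesis, ranged from 7.83 to 8.08 in injured none arrays (median 7.97), against 7.50 to 7.79 in sham none arrays (median 7.55). All 3 were well expressed, with narrow groups and differences of 0.45 ± 0.14, 0.42 ± 0.14 and 0.36 ± 0.14. Kyat3, an aminotransferase that makes kynurenic acid, ranged from 5.16 to 5.41 in injured none arrays (median 5.24), against 4.56 to 4.96 in sham none arrays (median 4.86). Ssu72, a phosphatase of the RNA polymerase II tail, ranged from 7.33 to 7.66 in injured none arrays (median 7.50), against 6.91 to 7.27 in sham none arrays (median 7.04). Rab13, a small GTPase of vesicle transport to cell junctions, ranged from 4.91 to 5.32 in injured none arrays (median 5.08), against 4.47 to 4.90 in sham none arrays (median 4.79). These 3 also did not overlap, with differences of 0.44 ± 0.12, 0.41 ± 0.13 and 0.36 ± 0.12. Tmem216, a protein of the base of the cilium, differed by 0.49 ± 0.16 at a low signal. Stk32a, a kinase gene, differed by 0.38 ± 0.11. Gpr19, an orphan receptor gene also read at a low signal, differed by 0.31 ± 0.10. Without injured none replicate 2, which at 4.99 stood above the others, Gpr19 differed by 0.24. In sham EPO arrays, which are compared with the same sham none arrays, the differences of these 9 genes from sham none ran from 0.29 to 0.65.

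Some other rows with no overlap as deposited did not keep their separation under all 3 scalings. Csnk2a1, the catalytic subunit of casein kinase 2, ranged from 8.83 to 9.37 in injured none arrays (median 9.19), against 7.83 to 8.79 in sham none arrays (median 8.70), and sham none replicate 3 was far below the other 5. Its groups overlapped after either rescaling. Tmem159, a protein of lipid droplets, ranged from 6.38 to 6.84 in injured none arrays (median 6.54), against 5.47 to 6.29 in sham none arrays (median 6.22), with sham none replicate 5 the lowest. Fah, the last enzyme of tyrosine breakdown, spanned only 6.83 to 6.91 in injured none arrays, against 6.03 to 6.81 in sham none arrays. Slc10a1, a bile acid transporter of the liver, was the other named row below, 2.77 to 2.86 in injured none and 2.88 to 3.001 in sham none arrays, a difference of -0.11 ± 0.07 at a level near the floor of the array.

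The remaining rows above were small shifts, mostly in well expressed genes, and those named here were chosen after their values were seen. Lamp1, a lysosomal membrane protein, spanned 10.47 to 10.68 in injured none and 10.06 to 10.42 in sham none arrays, and Npc2, which carries cholesterol out of lysosomes, spanned 8.59 to 8.98 in injured none and 8.08 to 8.52 in sham none arrays. Hadh, an enzyme of mitochondrial fatty acid oxidation, spanned 8.64 to 8.94 in injured none and 8.11 to 8.64 in sham none arrays, and Psmb1, a proteasome subunit, spanned 8.88 to 9.33 in injured none and 8.67 to 8.86 in sham none arrays. Ogg1, the glycosylase that removes oxidised guanine from DNA, spanned 5.46 to 5.97 in injured none and 5.18 to 5.45 in sham none arrays. Bak1, a mitochondrial effector of apoptosis, spanned 6.62 to 7.17 in injured none and 6.31 to 6.54 in sham none arrays, with injured none replicate 1 the highest. Hes1, a target of Notch signalling, spanned 6.90 to 7.20 in injured none and 6.57 to 6.88 in sham none arrays, and Dbp, a clock-controlled factor, spanned 8.15 to 8.34 in injured none and 7.47 to 8.13 in sham none arrays. Tgfb1, which encodes a cytokine that holds microglia in their resting state, spanned 5.95 to 6.08 in injured none and 5.61 to 5.94 in sham none arrays. None of these 9 genes stayed apart under all 3 scalings. Kyat1, the companion enzyme of Kyat3, spanned 7.13 to 7.35 in injured none and 6.65 to 7.12 in sham none arrays and was likewise apart only in some scalings.

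By the lists of cell types and pathways, which were chosen with earlier results known, 0 members passed in any of 36 lists. As deposited, 70.8% of all rows had a higher mean in injured none arrays, and of the 7991 rows with 1 symbol and a mean level of 6 or more 91.6% did, with a median difference of 0.15. After centring 52.4% and after quantile normalization 50.6% of all rows were higher. Counts of members with a higher mean are read against these shares. Many of them, such as the 16 of 17 microglia identity genes, lay near the share of well expressed rows. That share covers no list member under a level of 6. The median difference of dimmer rows was smaller, at 0.10 for levels of 5 to 6 and 0.02 for 4 to 5. Complement genes had a median difference of 0.27 as deposited, 0.20 centred and 0.11 after quantile normalization, with 8 of 10 measured members higher on average and 2, C3ar1 and C1qa, not overlapping, beside 0.663% of all rows with 1 symbol that lay above in this way. C1qb, the partner chain of C1qa, ranged from 7.89 to 8.30 in injured none arrays (median 8.21), against 6.91 to 8.06 in sham none arrays (median 7.82). Serping1, the inhibitor of the first complement component, ranged from 6.84 to 7.56 in injured none arrays (median 7.19), against 5.53 to 7.14 in sham none arrays (median 6.69), a difference of 0.66 ± 0.25. Both overlapped. Microglia identity genes had a median difference of 0.19 as deposited, 0.12 centred and 0.06 after quantile normalization, with 16 of 17 higher on average and 0 not overlapping. Tmem119, a marker of resident microglia, ranged from 6.03 to 6.46 in injured none arrays (median 6.40), against 5.52 to 6.47 in sham none arrays (median 5.84), and P2ry13, a purine receptor of resting microglia, ranged from 6.89 to 7.62 in injured none arrays (median 7.35), against 6.57 to 7.53 in sham none arrays (median 6.92). Trem2, the lipid receptor of phagocytic microglia, ranged from 5.70 to 5.96 in injured none arrays (median 5.89), against 5.25 to 5.75 in sham none arrays (median 5.42). Of the 13 phagocytic and lysosomal microglia genes 11 were higher on average and 0 were apart, with a median difference of 0.17 as deposited, 0.09 centred and 0.10 after quantile normalization. Perivascular macrophage genes had 8 of 8 higher on average (median difference of 0.19 as deposited, 0.12 centred and 0.18 after quantile normalization). Infiltrating leukocyte genes had 7 of 17 higher on average and a median difference of -0.01 as deposited, -0.08 centred and -0.04 after quantile normalization. The leukocyte genes summed to 7.41 to 7.64 in injured none and 7.44 to 7.83 in sham none arrays, and Cd79a, of the B cell receptor, ranged from 3.20 to 3.90 in injured none arrays (median 3.64), against 3.46 to 4.65 in sham none arrays (median 4.04).

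Cytokine and chemokine genes had a median difference of 0.05 as deposited, -0.02 centred and 0.03 after quantile normalization, and 20 of 23 had intervals within 2-fold with the spread of 24 arrays and 23 with that of 12. Interferon response genes had a median difference of 0.16 as deposited, 0.09 centred and 0.04 after quantile normalization. Among them B2m, the light chain of MHC class I, ranged from 9.06 to 9.64 in injured none arrays (median 9.24), against 8.12 to 9.16 in sham none arrays (median 9.05), a difference of 0.44 ± 0.22. Reactive astrocyte genes had 13 of 16 higher on average (median difference of 0.22 as deposited, 0.15 centred and 0.11 after quantile normalization). Astrocyte identity genes had 9 of 11 higher as deposited but 6 of 11 after quantile normalization (median difference of 0.10 as deposited, 0.03 centred and 0.07 after quantile normalization).

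Oligodendrocyte lineage genes, BMP genes and dividing cell genes were read beside Bmp4. Bmp4 is itself a member of the BMP and TGF-beta list and of the oligodendrocyte precursor and lineage list. The counts and medians of both lists therefore include it. In the BMP and TGF-beta list 18 of 20 genes were higher on average, beside 91.6% of well expressed rows with 1 symbol. Some members, such as Bmp5, were dimmer than those rows. The list had a median difference of 0.26 as deposited, 0.19 centred and 0.11 after quantile normalization. Bmp5 and Bmp7, further ligands of the family, ranged from 3.73 to 4.74 in injured none arrays (median 4.38), against 3.46 to 4.17 in sham none arrays (median 3.99) and from 5.31 to 6.27 in injured none arrays (median 6.14), against 5.13 to 5.94 in sham none arrays (median 5.57). Id3, a target of BMP receptors, ranged from 6.52 to 7.71 in injured none arrays (median 7.17), against 5.92 to 7.85 in sham none arrays (median 6.85). These 3 overlapped, and the Id3 difference of 0.38 turned negative in 2 alternative fits, to -0.05 at the lowest. Genes of DNA replication and mitosis were higher on average in 16 of 16 as deposited and in 15 of 16 after quantile normalization (median difference of 0.22 as deposited, 0.14 centred and 0.15 after quantile normalization). Mcm6, a subunit of the replicative helicase, ranged from 5.07 to 5.81 in injured none arrays (median 5.66), against 4.54 to 5.37 in sham none arrays (median 5.20). Ccna2, the cyclin of S phase, ranged from 5.43 to 6.02 in injured none arrays (median 5.72), against 4.69 to 5.61 in sham none arrays (median 5.44), and Cdk1, the kinase of mitosis, ranged from 4.51 to 5.02 in injured none arrays (median 4.89), against 4.21 to 4.78 in sham none arrays (median 4.47). All 3 overlapped, with differences of 0.41 ± 0.21, 0.41 ± 0.22 and 0.36 ± 0.16. Precursor and lineage genes of oligodendrocytes were higher on average in 14 of 14 as deposited and in 8 of 14 after quantile normalization (median difference of 0.19 as deposited, 0.12 centred and 0.06 after quantile normalization). Vcan, a proteoglycan of precursor cells, ranged from 6.79 to 7.42 in injured none arrays (median 6.99), against 6.07 to 6.91 in sham none arrays (median 6.59).

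Myelin genes had the largest list median, and it was much lower without 1 array. The 14 measured genes had a median difference of 0.36 as deposited, 0.28 centred and 0.26 after quantile normalization, and all 14 were higher on average. Mog, a protein of the outer myelin surface, measured 8.20, 7.32, 6.78, 7.59, 7.39 and 10.42 in the 6 injured none arrays, against 5.91, 6.68, 6.46, 8.40, 7.77 and 8.84 in the 6 sham none arrays. Injured none replicate 6, at 10.42, was far above the rest, and Mobp, another myelin protein, reached 10.27 in the same array, against a median of 8.05 in its group. Without that array the list median was 0.09, beside 0.09 for all rows, with 11 of 14 genes higher, and the Mog difference was 0.11 in place of 0.61. The arrays with the letter code 3D in their titles, 4 injured none and 2 sham none, do not include that array. Among them the list median was 0.28, beside 0.05 for all rows. The summed myelin level was 13.60 in that array and 11.63 to 12.24 in the other 5 injured none arrays, against 11.25 to 12.67 in sham none arrays.

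Choroid plexus and ependyma, the epithelia that line the ventricle beside the hippocampus, also differed between single arrays. Ttr, the transthyretin gene of the choroid plexus, measured 12.79, 12.69, 12.74, 12.70, 13.26 and 12.61 in the 6 injured none arrays, against 12.83, 12.67, 12.76, 12.95, 6.52 and 12.71 in the 6 sham none arrays. Sham none replicate 5 read 6.52, and no other of the 12 arrays was below 12.61. The Ttr difference of 1.06 was the only one beyond 2-fold among rows with 1 symbol, and without that array it was 0.01. The median of the 12 choroid plexus genes was 0.30 with all arrays, 0.05 without that array and 0.11, with 10 of 12 higher, without injured none replicate 5. Folr1, a folate receptor of the same epithelium, ranged from 6.91 to 8.97 in injured none arrays (median 7.52), against 5.28 to 8.23 in sham none arrays (median 7.20), and its difference of 0.61 became 0.25. Ependymal genes had a median difference of 0.29 as deposited, 0.21 centred and 0.22 after quantile normalization, with 8 of 8 higher on average. Cfap126, a gene of motile cilia, measured 4.97, 4.65, 5.12, 5.08, 6.47 and 4.72 in the 6 injured none arrays, against 4.85, 4.56, 5.06, 4.65, 3.68 and 4.65 in the 6 sham none arrays. Injured none replicate 5 was high and sham none replicate 5 low, and the ependymal median was 0.18 without injured none replicate 5 and 0.22 without sham none replicate 5. Aldh1a2, the retinoic acid enzyme of the meninges, ranged from 6.39 to 8.09 in injured none arrays (median 7.28), against 4.99 to 7.48 in sham none arrays (median 6.41), a difference of 0.92 ± 0.37. Without sham none replicate 5 Bmp4 differed by 0.70, C3ar1 by 0.59 and Agmo by 0.49, and without injured none replicate 6 by 0.75, 0.70 and 0.53. The part of tissue content in other differences was not tested.

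**Figure D4:**
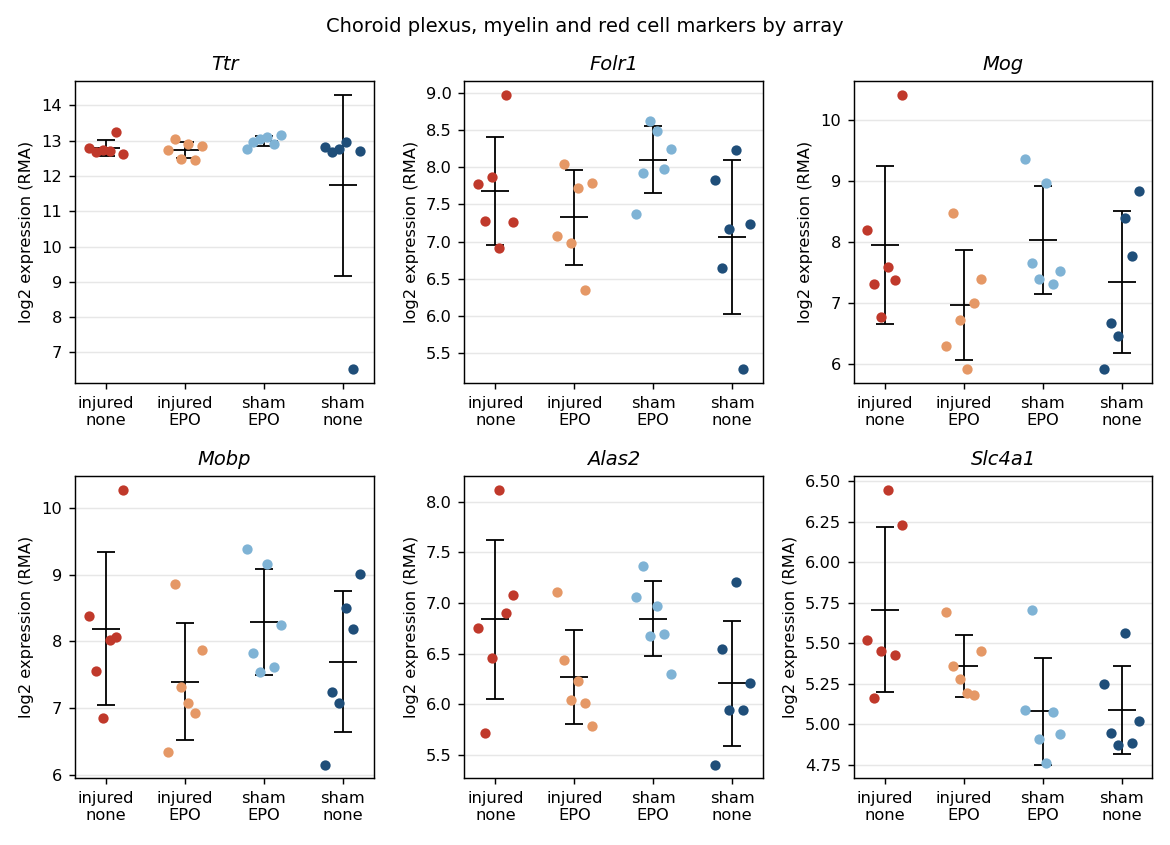
Log2 expression of choroid plexus (Ttr, Folr1), myelin (Mog, Mobp) and red cell (Alas2, Slc4a1) genes in every array, with bars at the mean and SD of each labelled group of 6. Ttr was 6.52 in sham none replicate 5 and at least 12.61 in the other injured none and sham none arrays, and Mog was 10.42 in injured none replicate 6.

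Most neuronal genes gave narrow bounds. The neuronal and synaptic list had a median difference of 0.03 as deposited, -0.04 centred and -0.04 after quantile normalization, so its direction turned with the scaling, and all 20 genes had intervals within 2-fold in both fits. The 16 glutamate and GABA receptor genes had a median difference of 0.01 as deposited, -0.06 centred and -0.11 after quantile normalization. The 15 interneuron genes had a median difference of 0.07 as deposited, -0.0047 centred and -0.02 after quantile normalization. Dlx1, a factor of inhibitory neurons, ranged from 7.23 to 7.63 in injured none arrays (median 7.55), against 6.97 to 7.40 in sham none arrays (median 7.16), a difference of 0.32 ± 0.10. Nefl, the light neurofilament gene, ranged from 10.25 to 10.62 in injured none arrays (median 10.43), against 10.09 to 10.32 in sham none arrays (median 10.22), a difference of 0.22 ± 0.10. Pyramidal and granule neuron genes were higher on average in 16 of 18 as deposited and in 8 of 18 after quantile normalization. Neurod1, a factor of newborn granule cells, ranged from 8.61 to 9.08 in injured none arrays (median 8.77), against 8.02 to 8.81 in sham none arrays (median 8.34). Immediate early genes, which neurons switch on when active, had 8 of 16 higher and a median difference of -0.00073 as deposited, -0.07 centred and -0.14 after quantile normalization. Nr4a2 and Fosl2, both of that list, had lower means in injured none arrays, with differences of -0.31 ± 0.27 and -0.19 ± 0.15.

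**Figure D5:**
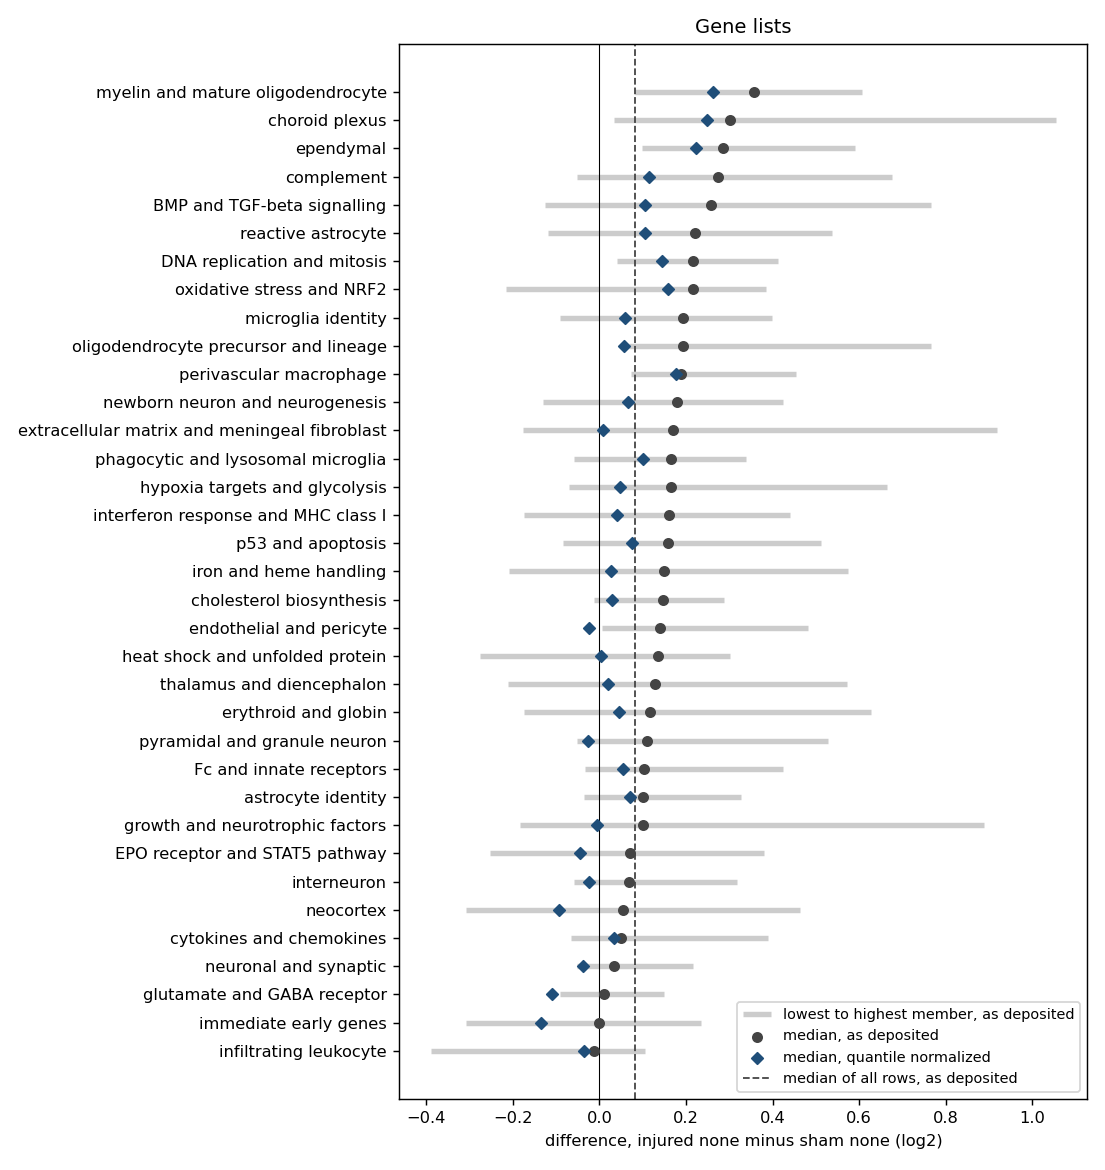
Median difference (log2, injured none minus sham none) of 35 gene lists as deposited (circles) and after quantile normalization (diamonds), with grey bars from the lowest to the highest member and a dashed line at the median of all rows, 0.08. Myelin, choroid plexus and ependymal lists lie at the top, at 0.36, 0.30 and 0.29, and infiltrating leukocyte genes at the bottom, at -0.01.

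The EPO pathway and the genes of red cells, iron and low oxygen closed the comparison. Epor, the EPO receptor gene, ranged from 4.87 to 5.53 in injured none arrays (median 5.23), against 4.76 to 5.20 in sham none arrays (median 5.10), a difference of 0.15 ± 0.10 (adjusted p = 0.677). Epo itself was read near the floor of the array, 2.56 to 2.94 in injured none and 2.39 to 2.70 in sham none arrays. Cish, a target of Stat5, ranged from 5.11 to 5.71 in injured none arrays (median 5.54), against 5.15 to 5.71 in sham none arrays (median 5.42). Bcl2l1, a survival gene downstream of Stat5 in red cell precursors, ranged from 6.29 to 6.67 in injured none arrays (median 6.53), against 6.23 to 6.60 in sham none arrays (median 6.47). The differences of Cish and Bcl2l1 were 0.06 ± 0.12 and 0.05 ± 0.08, and both turned negative in some alternative fits. Over the 19 genes of the EPO receptor and STAT5 list there was a median difference of 0.07 as deposited, -0.0013 centred and -0.05 after quantile normalization. Alas2, the heme synthesis enzyme of red cells, ranged from 5.72 to 8.12 in injured none arrays (median 6.83), against 5.41 to 7.21 in sham none arrays (median 6.08). Slc4a1, the anion exchanger of the red cell membrane, ranged from 5.16 to 6.44 in injured none arrays (median 5.48), against 4.87 to 5.56 in sham none arrays (median 4.98). Both were variable, with differences of 0.63 ± 0.31 and 0.62 ± 0.19 and adjusted p of 0.647 and 0.637. Without injured none replicate 4, at 8.12, the Alas2 difference was 0.37. Of the neurotrophic genes, Bdnf differed by 0.05 ± 0.13 and Vegfa by 0.10 ± 0.10.

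Hypoxia targets had a median difference of 0.17 as deposited, 0.09 centred and 0.05 after quantile normalization. Adm, the vasodilator peptide adrenomedullin, ranged from 4.29 to 5.32 in injured none arrays (median 4.60), against 3.56 to 4.83 in sham none arrays (median 3.95). Egln3, an oxygen-sensing prolyl hydroxylase and itself a hypoxia target, ranged from 5.93 to 6.63 in injured none arrays (median 6.43), against 5.12 to 6.12 in sham none arrays (median 5.80). Ddit4, a stress inhibitor of mTOR signalling, ranged from 7.75 to 8.30 in injured none arrays (median 8.07), against 7.36 to 7.79 in sham none arrays (median 7.73). The 3 differences were 0.66 ± 0.38, 0.63 ± 0.23 and 0.41 ± 0.15 (adjusted p = 0.648, 0.637 and 0.637), and the groups overlapped for each. Casp6, an executioner caspase, ranged from 5.65 to 6.29 in injured none arrays (median 5.92), against 5.02 to 5.73 in sham none arrays (median 5.51), a difference of 0.51 ± 0.17 (adjusted p = 0.637). Of the 18 hypoxia genes, 16 were higher on average as deposited, beside 91.6% of well expressed rows with 1 symbol, and 13 after quantile normalization. Some members, such as Adm, were dimmer than those rows.

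The titles carry a letter code of 7 values whose meaning is not given, and it was unevenly spread: code 3D covered 4 injured none and 2 sham none arrays. With the code as a fixed block Bmp4 differed by 0.77, C3ar1 by 0.63, Agmo by 0.58 and Olfr1413 by -0.79. Within code 3D the 4 differences were 0.73, 0.54, 0.50 and -0.62. These 4 genes were chosen because their groups do not overlap, so their direction within code 3D was fixed beforehand and only the size is informative. With the block Lcn2 differed by 0.13, in place of 0.40, and Timp1 by -0.24, in place of 0.04. The list median of oligodendrocyte precursor and lineage genes was 0.20 with the block but 0.0038 within code 3D, that of complement genes 0.18 and 0.15, and that of choroid plexus genes 0.58 and 0.46. The median difference of all rows was 0.07 with the block and 0.05 within code 3D.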

How the data were processed

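Total RNA of the right hippocampus was hybridised to exon arrays, 1 per sample. The submitters' processing notes name Affymetrix Expression Console and RMA as the tools by which the authors made the deposited log2 expression values. Not given in the sources used here were their versions and annotation, and no background value per probe was used, so no row was called undetected. Array medians of the 12 arrays ran from 5.12 to 5.33, and the number of arrays limits the precision. Rows were named from the platform annotation: 14939 rows had 1 symbol, 989 several and 7310 none, and 14884 of the first matched RefSeq genes (GRCm38.p6) by Entrez ID. Where a gene had several rows (131 genes) the one with the highest mean was used.

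Groups follow the listed injury status and treatment, and replicates were numbered in accession order. Each row had a mean for each of the 4 groups in a limma 3.58.1 fit (R 4.3.3) of the 24 arrays, which left 20 residual degrees of freedom and 23.3 after moderation, with no filter on level and with Benjamini-Hochberg adjustment over 23238 rows. Intervals are moderated 95% intervals of single rows. A row does not overlap when all 6 arrays of a group lie beyond all 6 of the other. Array summaries were compared by exact permutation over samples. List counts and medians are descriptions. The fit was tested on simulated data.

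The members, the 36 lists (615 genes) and the fixed genes were chosen with earlier results of these data known. The text names the 15 rows with no overlap and the largest difference in each direction, the 10 rows with the smallest p, at most 4 genes from each list by size of difference, the 14 rows apart under all 3 scalings and 25 fixed genes, and not every one is written out. Alternatives covered scaling, dim rows, rows with 1 symbol, the arrays in the fit, the title code, the variance model, array weights, Eif2s3y as a covariate, the reading of the titles, each array left out and the thresholds.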

Additional observations from a re-analysis of the deposited data

Results flagged for a closer look

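In 190 checks of a group of 6 arrays (95 genes in injured none and sham none), 23 had an array farther from its nearest neighbour than Dixon's 95% limit for 6 values. For genes not chosen by their values, chance flags about 1 group in 20. Many of these genes were chosen by their differences in the same arrays, and a single far array can make a difference larger. The 23 were therefore not set against that rate. The clearest was Ttr, the choroid plexus gene, at 6.52 in sham none replicate 5, and Ttr was also high, at 13.3, in injured none replicate 5. The ciliary genes Cfap126 and Dynlrb2 stood out in the same 2 arrays, at 6.47 and 6.30 in injured none replicate 5 and at 3.68 and 3.62 in sham none replicate 5. Injured none replicate 5 was also high for the chemokine gene Ccl3, at 5.29, and for Npc2, at 8.98. Sham none replicate 5 was also low for Tmem159 (5.47), Hmox1 (4.90) and Mcm6 (4.54). Injured none replicate 6 was high for the oligodendrocyte genes Ermn (6.85) and Trf (9.36) and low for 2810032G03Rik (3.96).

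Injured none replicate 2 was low for Olfr1413 (3.18) and Gm4876 (4.25) and high for Ccl2 (4.42) and Gpr19 (4.99). Injured none replicate 1 was high for Bak1 (7.17). Sham none replicate 3 was low for Csnk2a1 (7.83) and Kyat3 (4.56), and sham none replicate 1 was low for Emg1 (6.84) and C1qb (6.91).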

How the results depend on the processing

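No row was called in 22 of the 24 alternative fits of the comparison. Some of these 22 came close to the threshold. The smallest adjusted p (limma) was 0.053 with array weights, 0.055 without injured none replicate 3 and 0.088 without sham none replicate 6. In the others it was 0.107 or more. Centring called 1 row, which has no symbol here, and reading the titles the other way called 4445 rows, 289 of them list genes. At an adjusted p of 0.25 there were 5 rows. Rows with all injured none arrays above numbered 117 as deposited, 36 after quantile normalization, 51 centred, 3044 within code 3D (4 arrays against 2, which overlap less by construction) and 1789 with the titles read the other way. Rows below numbered 8, and 21, 26, 972 and 901 under the same settings, 1 among rows with a mean of at least 5 and 2 among rows with 1 symbol. Leaving out 1 array eases the criterion and gave 132 to 634 rows above and 12 to 41 below. The highest counts above came without sham none replicate 6 (634) and injured none replicate 6 (494), and counts over 1.5 times the full one also came without injured none replicates 2 (213) and 4 (183) and sham none replicate 2 (202). The share of rows with an interval within 2-fold was 95.2% to 96.3% with 1 array left out. Rows that differ from sham EPO arrays numbered 4671, and 1340 within code 3D. The difference in array median was 0.0589 to 0.0886 with 1 array left out and 0.0577 within code 3D. It lost an unadjusted exact p under 0.05 in 8 of the 12 omissions. Within code 3D, 4 arrays against 2 allow too few assignments for an exact p under 0.05, so only the size is given there.

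Of 95 gene differences, 10 changed sign in at least 1 of 23 settings other than the titles, among them 0 of the 14 genes apart under all 3 scalings. Those 14 were chosen because their groups do not overlap. Their sign therefore could not change on rescaling, with an array left out or within code 3D, and the 0 is no measure of stability. With the titles read the other way, differences that passed turned to -0.31 for 2810032G03Rik, 2.18 for Ccl2, -0.81 for Socs2, 2.27 for Socs3, -2.31 for Neurod6, -2.12 for Fibcd1, -1.73 for Hpca, -0.60 for Tmem119, -1.13 for P2ry13, -1.07 for Nefl and -0.76 for Neurod1, and 48 more kept their direction and passed, among them Ccl3 at 6.95, Lcn2 at 6.05, H19 at 5.36, C3ar1 at 4.56 and Gfap at 2.37. Without injured none replicate 5 the Ccl3 difference was 0.14 in place of 0.39, that of Cfap126 0.33 in place of 0.59 and that of Emcn 0.31 in place of 0.48, and without sham none replicate 1 that of C1qb was 0.26 in place of 0.42. No paired analysis was possible because the replicate numbers of the groups follow accession order and tie no sample of one group to a sample of the other. No background per probe was used. How far rows at a low signal lay above the floor was therefore not tested. Olfr1413, Slc10a1, Agmo, Ccl3, Lcn2, Timp1 and Ccl2 are among them. The cause of these changes was not tested.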

Other observations

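Of the 17 rows with a difference beyond 2-fold, 7 were higher and 10 were lower in injured none arrays, and Ttr was the only one with 1 symbol. A difference beyond 1.5-fold was seen in 124 rows on the higher and 84 on the lower side. Genes of the thalamus, a neighbour of the hippocampus, had 10 of 12 members higher on average and a median difference of 0.13 as deposited, 0.06 centred and 0.02 after quantile normalization. Prkcd, a kinase gene of thalamic relay neurons, ranged from 6.65 to 7.91 in injured none arrays (median 7.42), against 6.01 to 7.33 in sham none arrays (median 6.85), a difference of 0.57 ± 0.23 (adjusted p = 0.637). Genes of endothelium and pericytes were higher on average in 19 of 19 as deposited and in 9 of 19 after quantile normalization, beside 91.6% of the rows with 1 symbol and a mean level of 6 or more as deposited, and had a median difference of 0.14 as deposited, 0.07 centred and -0.02 after quantile normalization. Emcn, a sialomucin of venous endothelium, ranged from 5.56 to 6.98 in injured none arrays (median 6.06), against 5.05 to 6.003 in sham none arrays (median 5.71). Nkg7, a granule gene of cytotoxic lymphocytes, ranged from 2.73 to 3.12 in injured none arrays (median 3.04), against 2.95 to 3.41 in sham none arrays (median 3.27), a difference of -0.26 ± 0.11 at a low level.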
